A study of Rattus norvegicus with 3 samples.

Results

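Collagen genes were described on 3 rat arrays, 1 per tissue. They were taken as all genes whose symbol in the array's annotation has the form of a collagen alpha chain, leaving out Col17a1, and each was read through its brightest probe set, meaning the set of oligonucleotides that reports 1 message. This gave 40 collagen genes of 14217 genes in all, from 57 probe sets. By the structure of the protein, 11 encode fibrillar chains, 9 fibril-associated chains, 8 network-forming chains and 5 beaded-filament chains, and 7 belong to none of these classes. Col28a1, Col4a3 and Col6a4 had no probe set with a single symbol and were not analysed here.

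The tissues came from the upper molar region of wild type male Sprague-Dawley rats aged 9 weeks at harvest and were cut out of sections by laser microdissection, per the labels. PICT is peri-implant connective tissue, taken 4 weeks after a molar was extracted at 5 weeks of age and a titanium alloy implant was put into its socket. OMCT is oral mucosal connective tissue, taken 4 weeks after extraction at the same age with no implant named in the labels, and PCT is periodontal connective tissue at the upper first molar, for which the labels name no operation. The labels do not say how many animals were pooled per array, and the design text once names mice for PCT where the sample labels name rat. With 1 array per tissue no test between tissues was possible, and every difference below is a description of 3 arrays.

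Collagens are the main structural proteins of connective tissue. Each is a trimer of alpha chains wound into a triple helix, and the chains of a trimer come from 1 gene or from several. Fibrillar collagens assemble into the tension-bearing fibres of gingiva, periodontal ligament and bone, and fibril-associated collagens sit on the surface of those fibres. Network collagens form sheets, above all the basement membranes under epithelium and around vessels, and beaded filaments of collagen VI link cells to the surrounding matrix.

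The arrays did not share a common brightness. The median intensity was 56.5 in PICT, 57.4 in OMCT and 34.3 in PCT. Differences are therefore given on a relative log2 scale, log2(intensity + 8.56) with each array's median subtracted, and "as deposited" marks values without that subtraction. As deposited, differences lie 0.60 higher for PICT minus PCT, 0.62 higher for OMCT minus PCT and 0.02 lower for PICT minus OMCT. A relative difference from PCT between -0.60 and 0 thus turns positive as deposited, and 2 values at 0 intensity would give a relative difference of -0.60 in PICT minus PCT and -0.62 in OMCT minus PCT. For that reason genes below the median on both arrays were not called, though the medians given below include some of them. The rule for calling a gene higher or lower asked for a relative difference of 1 or more in size (2-fold), with the gene at or above the array's median probe set on the array where it was brighter. Of the 40 collagen genes, 28 reached that brightness on at least 1 array and 12 lay below the median on every array. The highest of 3 negative control probe sets read 8.36 in PICT, 3.60 in OMCT and 5.71 in PCT, and 31, 37 and 33 collagen genes exceeded it on those arrays.

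Markers of connective tissue and of epithelium were both present. All 12 fibroblast markers exceeded the negative controls on each array, among them vimentin (Vim) with 3649 in PICT, 6205 in OMCT and 2541 in PCT. The 8 measured markers of basal keratinocytes did so as well, and summed to 0.441% of the array's total intensity in PICT, 0.372% in OMCT and 0.708% in PCT.

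Of the 28 collagen genes bright enough to be called, 23 read highest in the healed extraction site (OMCT) on the relative scale. In PICT against OMCT, 14 of 40 collagen genes (35%) were at least 2-fold lower and 0 were higher, where 4.46% of all genes were lower and 4.15% higher. In OMCT against PCT, 17 collagen genes (42.5%) were higher and 2 (5%) were lower, where 5.66% of all genes were higher and 4.81% lower. The 2 comparisons share the OMCT array and are not independent of each other.

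Between the implant and the tooth, fewer collagen genes were called. In PICT against PCT, 1 of 40 collagen genes (2.5%) was higher and 3 (7.5%) were lower, beside 3.98% and 3.37% of all genes. As deposited, 6 collagen genes were higher and 2 lower in this comparison, beside 14.1% and 0.900% of all genes, so the count rests on how the arrays are scaled. The other counts moved less as deposited, with 0 higher and 14 lower in PICT against OMCT (3.98% and 4.64% of all genes) and 19 higher and 1 lower in OMCT against PCT, where 17.6% of all genes were then higher and 2.10% lower.

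The median over collagen genes above the negative controls on at least 1 of the arrays compared was -0.01 for PICT minus PCT (35 genes), -0.72 for PICT minus OMCT (37 genes) and 0.87 for OMCT minus PCT (37 genes). Over all genes the same medians were -0.08, -0.06 and -0.04. With all 40 collagen genes the medians were -0.21, -0.65 and 0.64, and the PICT minus PCT median turned to 0.39 as deposited. In a bulk section, fewer collagen-making cells and less collagen RNA per cell cannot be told apart.

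**Figure D1:**
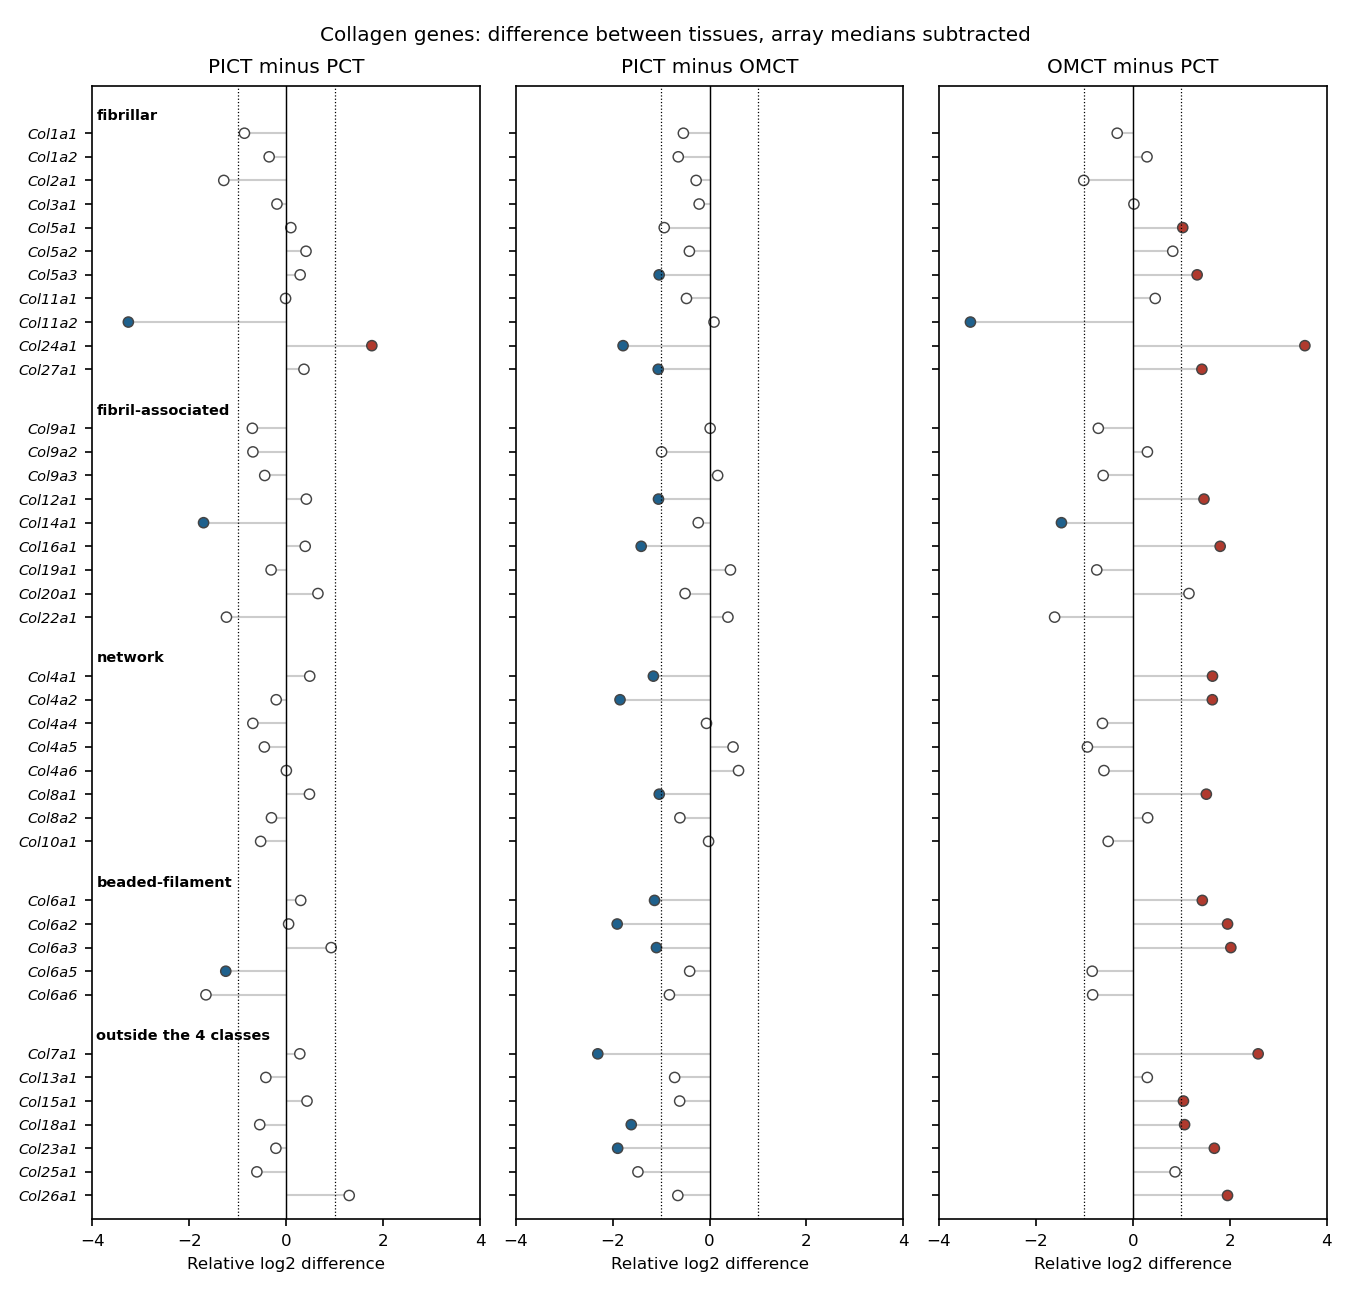
Relative log2 difference (x axes, array medians subtracted) of each of the 40 collagen genes for PICT minus PCT, PICT minus OMCT and OMCT minus PCT; red points were called higher, blue points lower, white points neither, and dotted lines mark 2-fold. PICT minus OMCT holds 14 blue and 0 red points and OMCT minus PCT 17 red and 2 blue points, against 1 red and 3 blue points in PICT minus PCT.

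Of the 11 fibrillar chains, 3 were called lower in PICT than in OMCT, 4 higher and 1 lower in OMCT than in PCT, and in PICT against PCT 1 was higher and 1 lower. Col1a1 and Col1a2 encode the 2 chains of collagen I, the main fibre of gingiva and bone. Col1a1 had an intensity of 5552 in PICT, 8189 in OMCT and 6651 in PCT. Col1a2 had 4977 in PICT, 7899 in OMCT and 4184 in PCT. Col3a1, the chain of collagen III that co-assembles with collagen I in pliable tissue, had 9967 in PICT, 11728 in OMCT and 7496 in PCT. None of the 3 passed 2-fold in any comparison. Their relative differences for OMCT minus PCT were -0.32, 0.29 and 0.02, and for PICT minus OMCT -0.54, -0.65 and -0.21. For PICT minus PCT they were -0.86, -0.35 and -0.19, and Col1a2 and Col3a1 turned to 0.25 and 0.41 as deposited. The other probe sets of Col1a1 and Col1a2 gave relative differences of -0.21 and -0.80 there.

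These 3 genes were among the brightest messages on arrays whose highest values were 13104 in PICT, 12963 in OMCT and 12693 in PCT. Hybridisation control messages at several levels gave as-deposited OMCT minus PCT differences of 0.32 (bioB, mean 774 in OMCT and 622 in PCT), 0.39 (bioC), 0.18 (bioD) and 0.05 (cre, mean 10995 in OMCT and 10655 in PCT), so the brightest control differed least in that comparison. For PICT minus PCT they gave 0.20, 0.31, 0.13 and 0.15. The part of signal range in the small differences of Col1a1, Col1a2 and Col3a1 was not tested.

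Collagens V and XI are minor fibrillar collagens that nucleate collagen I and II fibrils and limit their diameter. Col5a3 had 365 in PICT, 769 in OMCT and 193 in PCT, with -1.04 for PICT minus OMCT and 1.33 for OMCT minus PCT. Col5a1 had 2636 in PICT, 5119 in OMCT and 1622 in PCT, with 1.03 for OMCT minus PCT and -0.93 for PICT minus OMCT. Its other probe set gave 1.84 and -1.53, past 2-fold in both. The partner of Col5a1 in the collagen V trimer, Col5a2, had 3833 in PICT, 5188 in OMCT and 1898 in PCT, and it stood at 0.82 for OMCT minus PCT. Several of these values lie near the 2-fold line. Col5a3 lost its PICT minus OMCT call with the pseudocount at the median of all values (-0.97), Col5a1 lost its OMCT minus PCT call with a pseudocount of 1, and Col5a2 passed 2-fold for OMCT minus PCT as deposited (1.45) and by its other probe set (1.77).

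Col11a1 and Col11a2, chains of collagen XI best known from cartilage, ran apart. Col11a1 had 2236 in PICT, 3156 in OMCT and 1483 in PCT and was called in no comparison by its brightest probe set, though it passed 2-fold for OMCT minus PCT as deposited (1.08). Col11a2 had 5.62 in PICT, 4.92 in OMCT and 80.8 in PCT, a relative difference of -3.26 for PICT minus PCT and -3.35 for OMCT minus PCT. In PICT it did not exceed the negative controls, so the size of its PICT minus PCT difference is not settled, and with a pseudocount of 1 the differences were -4.33 and -4.52. It was read by 1 probe set alone. Among cartilage and bone markers, Acan (the proteoglycan aggrecan) had 41.4 in PICT, 152 in OMCT and 162 in PCT, and Dmp1 (a mineralised matrix protein of osteocytes and cementocytes) had 36.5 in PICT, 40.03 in OMCT and 118 in PCT. The 5 measured chondrocyte markers of 7 summed to 115 in PICT, 263 in OMCT and 196 in PCT, with 5, 5 and 3 above the negative controls, and the 6 measured osteoblast markers of 8 summed to 702 in PICT, 1531 in OMCT and 935 in PCT, with 5, 5 and 6 above them. As shares of each array's total intensity, the chondrocyte sums were 0.00193% in PICT, 0.00431% in OMCT and 0.00479% in PCT. The osteoblast sums were 0.0118% in PICT, 0.0251% in OMCT and 0.0229% in PCT. These lists held markers of both directions: for OMCT minus PCT, Bglap (osteocalcin) stood at -5.19 and Dmp1 at -2.01, while Ibsp (bone sialoprotein) stood at 1.44 and Alpl (alkaline phosphatase) at 1.17, and Acan at -0.71 while Hapln1 stood at 1.75 and Matn1 at 0.85. In the order PICT minus PCT, PICT minus OMCT and OMCT minus PCT, 0, 0 and 0 chondrocyte markers were higher and 1, 1 and 0 lower, and 0, 1 and 2 osteoblast markers were higher and 3, 2 and 2 lower (1 lower for PICT minus PCT as deposited). Over all genes 3.98%, 4.15% and 5.66% were higher and 3.37%, 4.46% and 4.81% lower in that order. Col2a1, the main cartilage collagen, stayed at 1.35 in PICT, 3.61 in OMCT and 7.39 in PCT. The part of cartilage or mineralised tissue in the Col11a2 signal was not tested.

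Col24a1 was called in each of the 3 comparisons, under all 9 alternative settings. It was read by 1 probe set, so the settings that change the probe set could not alter its value. Dropping the brightness filter could not remove a call. Col24a1 encodes collagen XXIV, a fibrillar chain expressed in developing mouse bone. Its intensity was 120 in PICT, 441 in OMCT and 16.3 in PCT, so that each tissue was at least 2-fold from the next. The relative difference was 1.77 for PICT minus PCT, -1.78 for PICT minus OMCT and 3.55 for OMCT minus PCT. By the brightest probe sets it was the only collagen gene called higher in PICT than in PCT on the relative scale. Other probe sets of Col6a3 and Col11a1 passed 2-fold there, at 1.23 and 1.07. Col27a1, a related fibrillar chain of cartilage and developing bone, had 196 in PICT, 424 in OMCT and 96.0 in PCT, with -1.06 for PICT minus OMCT and 1.43 for OMCT minus PCT.

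**Figure D2:**
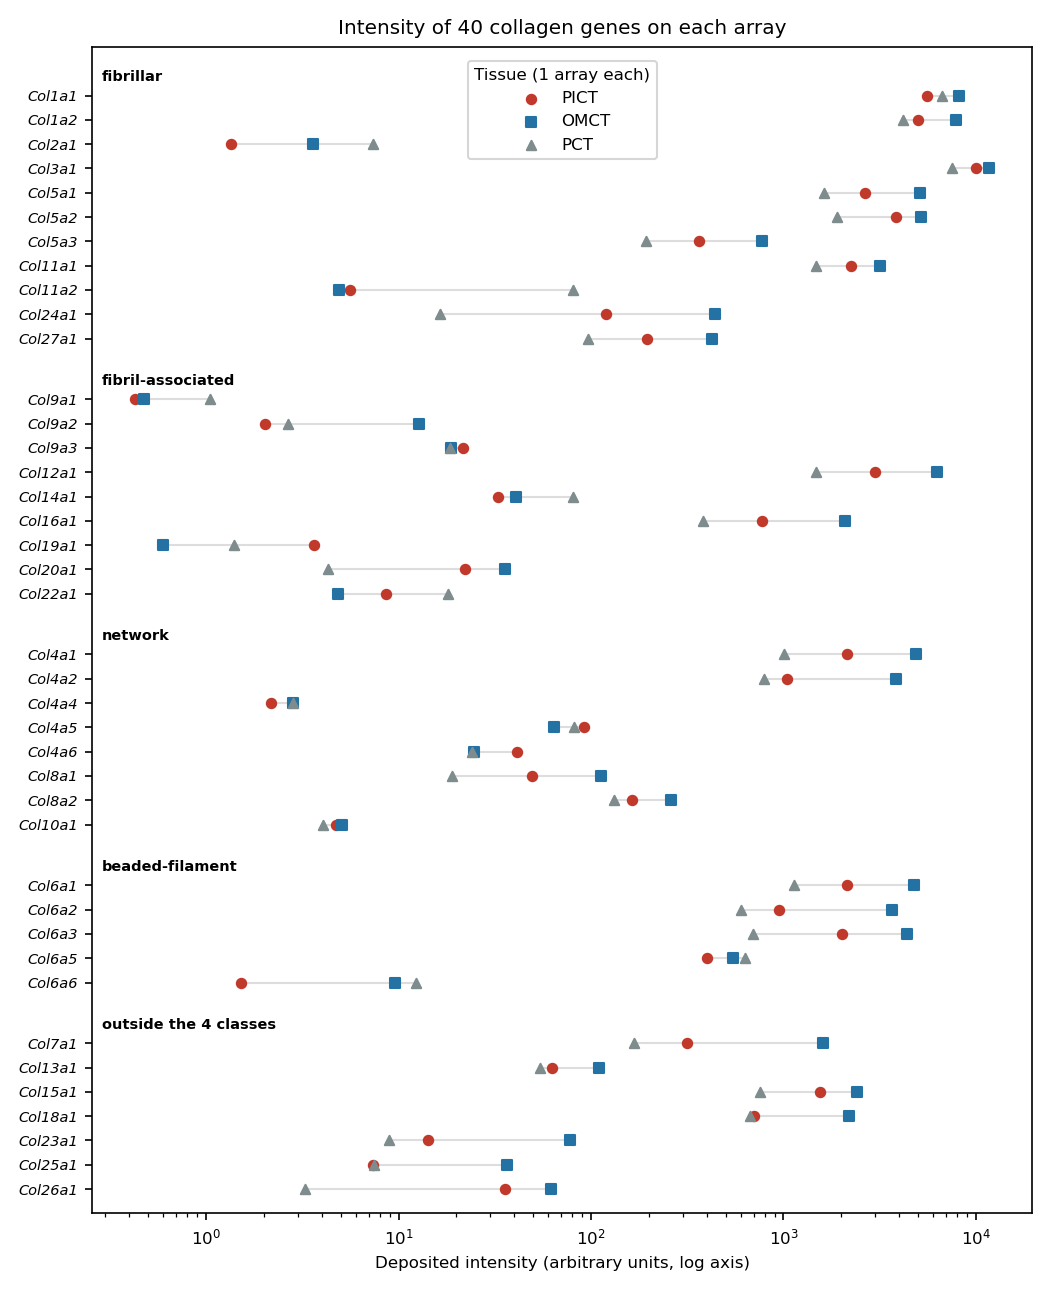
Deposited intensity (x axis, log scale) of the 40 collagen genes, ordered by class, with a circle for PICT, a square for OMCT and a triangle for PCT; points are compared within a row only, since probe sets differ in sensitivity. Col24a1 runs from 16.3 in PCT to 441 in OMCT, while Col11a2 stands at 80.8 in PCT against 5.62 in PICT and 4.92 in OMCT.

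Among fibril-associated collagens, Col12a1 and Col16a1 were higher in OMCT than in PCT, and Col14a1 was lower. Col12a1 encodes collagen XII, which binds collagen I fibrils in tendon and periodontal ligament. It had 2984 in PICT, 6288 in OMCT and 1469 in PCT, with -1.05 for PICT minus OMCT and 1.47 for OMCT minus PCT. Col16a1, which joins fibrillin microfibrils in skin, had 770.2 in PICT, 2091 in OMCT and 382 in PCT, with -1.41 and 1.80 for the same comparisons. Col14a1 encodes collagen XIV, which is close in structure to collagen XII. It had 33.0 in PICT, 40.9 in OMCT and 80.7 in PCT, and was lower in both PICT and OMCT, at -1.71 for PICT minus PCT and -1.47 for OMCT minus PCT (as deposited -1.10 and -0.85). Its other probe set gave -1.003 and -0.48. The OMCT minus PCT call was lost as deposited, with the median pseudocount, with the mean over probe sets and with the dimmest probe set, and the PICT minus PCT call with the dimmest. Col9a1, Col9a2 and Col9a3 encode the trimer of collagen IX, which coats cartilage fibrils. Col9a1 had 0.428 in PICT, 0.473 in OMCT and 1.05 in PCT, Col9a2 had 2.03 in PICT, 12.8 in OMCT and 2.68 in PCT, and Col9a3 had 21.6 in PICT, 18.7 in OMCT and 18.5 in PCT. These 3 and another 3 members (Col19a1, Col20a1 and Col22a1) lay below the median on every array, with intensities from 0.428 to 35.7.

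In the network class Col4a1 and Col4a2 were called together and Col4a5 and Col4a6 were not called. Col4a1 and Col4a2 encode the chains of the collagen IV trimer that is found in nearly every basement membrane. Col4a1 had 2142 in PICT, 4861 in OMCT and 1004 in PCT. Col4a2 had 1046 in PICT, 3839.9 in OMCT and 793 in PCT. Both were higher in OMCT than in PCT, at 1.64 each, and both were lower in PICT than in OMCT, at -1.16 and -1.85. Between PICT and PCT they differed by 0.49 and -0.21, neither past 2-fold (as deposited 1.09 and 0.40, Col4a1 past it). The other probe set of Col4a1 gave a relative difference of -0.35 there.

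Col4a1 and Col4a2 are neighbours on opposite strands of chromosome 16 whose annotated starts lie 77 bases apart, so that 1 short stretch precedes both. It is shown because both genes stood at 1.64 for OMCT minus PCT. The stretch of 76 bases (RefSeq, GRCr8, chr16:84885521-84885596, + strand, 78.9% G or C) held neither of the motifs searched, CCAAT and CAGAC on either strand. The longer windows before each start, as scanned for the other genes, reached past this stretch and each held CCAAT 1 time outside it. That motif lay 170 bases before the start of Col4a1, on the reverse strand, and 105 before that of Col4a2, on the forward strand. CAGAC was in neither window.
Col4a1 and Col4a2: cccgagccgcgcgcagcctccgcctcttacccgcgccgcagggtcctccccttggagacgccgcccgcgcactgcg

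Col4a5 and Col4a6 encode the chains of a second collagen IV network, found under stratified epithelium among other sites. Col4a5 had 91.8 in PICT, 64.1 in OMCT and 81.8 in PCT. Col4a6 had 41.2 in PICT, 24.7 in OMCT and 24.1 in PCT and lay below the median of each array. Neither was called in any comparison, and their OMCT minus PCT differences of -0.94 and -0.60 stood beside 1.64 for Col4a1. As deposited those 2 differences were -0.31 and 0.03. For PICT minus OMCT they were 0.49 and 0.60. The other probe set of Col4a6 gave 1.07 there, and it too lay below the median of each array.

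Col4a5 and Col4a6 are likewise head to head, on chromosome X, with annotated starts 1415 bases apart, so their windows of 250 bases before the start do not overlap. They are shown beside the shared stretch of the other pair (RefSeq, GRCr8, chrX:109907109-109907358, + strand, for Col4a5, and chrX:109905945-109906194, - strand, for Col4a6). Capitals mark CAGAC, found 1 time, in Col4a6. CCAAT was found in neither.
Col4a5: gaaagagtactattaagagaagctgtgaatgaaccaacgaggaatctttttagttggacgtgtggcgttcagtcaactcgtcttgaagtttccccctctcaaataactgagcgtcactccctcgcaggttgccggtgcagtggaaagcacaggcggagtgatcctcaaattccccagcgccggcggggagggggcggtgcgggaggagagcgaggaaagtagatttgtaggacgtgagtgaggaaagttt
Col4a6: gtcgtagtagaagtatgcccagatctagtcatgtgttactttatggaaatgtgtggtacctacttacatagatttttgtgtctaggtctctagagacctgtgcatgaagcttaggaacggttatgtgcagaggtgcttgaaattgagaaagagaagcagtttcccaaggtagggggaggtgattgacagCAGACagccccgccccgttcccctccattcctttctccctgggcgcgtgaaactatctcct

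The hexagonal network of collagen VIII, known from vessel walls and corneal endothelium, had partners that differed in size. Col8a1 had 49.5 in PICT, 112 in OMCT and 18.9 in PCT, with -1.04 for PICT minus OMCT and 1.52 for OMCT minus PCT. Col8a2 had 164 in PICT, 259 in OMCT and 132 in PCT, with -0.61 and 0.31. With the pseudocount at the median of all values Col8a1 stood at 0.90 for OMCT minus PCT, under 2-fold. Col10a1, the collagen of hypertrophic cartilage, had 4.74 in PICT, 5.11 in OMCT and 4.07 in PCT, and Col4a4 between 2.18 and 2.85.

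The 3 chains of the main collagen VI trimer were called together in 2 comparisons. This trimer holds the products of Col6a1, Col6a2 and Col6a3. Col6a1 had 2131 in PICT, 4756 in OMCT and 1137 in PCT. Col6a2 had 953 in PICT, 3644 in OMCT and 603 in PCT. Col6a3 had 2013 in PICT, 4372 in OMCT and 692 in PCT. All 3 were lower in PICT than in OMCT, at -1.13, -1.91 and -1.10, and all 3 were higher in OMCT than in PCT, at 1.43, 1.95 and 2.02. Between PICT and PCT the differences were 0.30, 0.05 and 0.93, under 2-fold, and as deposited Col6a3 passed it at 1.53. The other probe sets of Col6a2 and Col6a3 gave 0.99 and 1.23 on the relative scale, the latter past 2-fold.

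The alternative collagen VI chains did not follow the main trimer in the comparisons with PCT. For PICT minus OMCT they shared its direction, with Col6a5 at -0.41 and Col6a6 at -0.83, neither called. Col6a5, a chain best described in human skin, had 402 in PICT, 545 in OMCT and 634 in PCT. It was lower in PICT than in PCT at -1.25 and stood at -0.84 for OMCT minus PCT. As deposited these were -0.65 and -0.22, and the call was lost. Col6a6 was dim, with 1.51 in PICT, 9.58 in OMCT and 12.4 in PCT, and did not exceed the negative controls in PICT.

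The windows before Col6a1 and Col6a3 are shown because these chains of 1 trimer were called together in 2 comparisons (RefSeq, GRCr8, chr20:11905440-11905689, + strand, and chr9:98886959-98887208, - strand). Col6a2, called with them, had no promoter matched by symbol and is not shown. Capitals mark GTCTG, which is CAGAC read on the other strand; it was found 2 times in Col6a3 and 0 times in Col6a1.
Col6a1: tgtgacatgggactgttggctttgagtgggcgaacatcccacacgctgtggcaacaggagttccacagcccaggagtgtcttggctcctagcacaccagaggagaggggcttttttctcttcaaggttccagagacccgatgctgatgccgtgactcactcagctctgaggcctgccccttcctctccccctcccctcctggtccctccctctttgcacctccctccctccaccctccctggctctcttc
Col6a3: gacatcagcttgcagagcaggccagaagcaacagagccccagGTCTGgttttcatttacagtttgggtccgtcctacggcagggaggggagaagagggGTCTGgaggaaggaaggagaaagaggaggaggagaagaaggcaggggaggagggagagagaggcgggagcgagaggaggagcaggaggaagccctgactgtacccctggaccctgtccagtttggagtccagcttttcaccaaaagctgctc

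RefSeq promoters were matched by symbol for 31 of the 40 collagen genes, giving 34 windows. CCAAT, on either strand, was in 26.5% of these windows and in 34.02% of 33469 rat promoter windows of the same length. CAGAC, on either strand, was in 35.3% and 42.9%. Some of the collagen windows overlap, since Col6a5 has 2 and Col24a1 has 3, and those of Col4a1 and Col4a2 share the stretch between their starts. The median share of G or C was 59% over the collagen windows, beside 51.2% over all windows.

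Of the 7 collagens outside the 4 classes, 5 were higher in OMCT than in PCT. Of these calls Col7a1, read by 1 probe set, kept its own under all 9 alternatives. Col15a1, Col18a1, Col23a1 and Col26a1 each lost theirs under at least 1, and the other probe set of Col18a1 gave 0.67. Col7a1, which encodes the anchoring fibrils that tie the epithelial basement membrane to the connective tissue below, had 314 in PICT, 1611 in OMCT and 167 in PCT. It stood at -2.31 for PICT minus OMCT, 2.59 for OMCT minus PCT and 0.28 for PICT minus PCT. Col15a1 and Col18a1 are the multiplexins, basement membrane collagens that carry heparan or chondroitin sulphate chains. Col15a1 had 1546 in PICT, 2407 in OMCT and 752 in PCT, with -0.62 and 1.04 for PICT minus OMCT and OMCT minus PCT. Its other probe set gave -1.38 and 1.28, past 2-fold in both. Col18a1, the source of endostatin, had 700.0 in PICT, 2193 in OMCT and 673 in PCT, with -1.62 and 1.07.

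The transmembrane collagens and Col26a1 were dim or modest. Col23a1 had 14.3 in PICT, 77.6 in OMCT and 8.88 in PCT, with -1.90 for PICT minus OMCT and 1.68 for OMCT minus PCT. Col13a1, found at neuromuscular and other cell junctions, had 62.6 in PICT, 110.3 in OMCT and 54.2 in PCT and was called in no comparison. Col26a1 had 35.6 in PICT, 62.0 in OMCT and 3.26 in PCT. The PCT value lay under the highest negative control, so the size of its difference is not settled. Col25a1 had 7.38 in PICT, 36.5 in OMCT and 7.43 in PCT and lay below the median on each array.

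Among the 4 classes, beaded-filament chains had the widest medians in the comparisons with OMCT. Over members above the negative controls, the OMCT minus PCT medians were 1.43 for beaded-filament (5 genes), 0.46 for fibrillar (11 genes), 0.31 for network (7 genes) and 0.30 for fibril-associated chains (7 genes). The PICT minus OMCT medians were -1.10 for beaded-filament, -0.61 for network, -0.54 for fibrillar and -0.50 for fibril-associated chains. The PICT minus PCT medians lay between -0.10 and 0.05 for the 4 classes. Called members were 3 of 5 beaded-filament, 3 of 8 network, 3 of 11 fibrillar and 2 of 9 fibril-associated chains in PICT against OMCT, all lower. The order of the classes rests on which members count: over members whose mean level across the arrays reached the median of all genes, the OMCT minus PCT medians were 1.69 (4 beaded-filament genes), 1.64 (3 network genes), 1.64 (2 fibril-associated genes) and 0.82 (9 fibrillar genes). The PICT minus OMCT medians over those members were -1.23 for fibril-associated, -1.16 for network, -1.12 for beaded-filament and -0.65 for fibrillar chains. With all members, dim ones included, 2 OMCT minus PCT medians turned negative. They were -0.61 for fibril-associated (9 genes) and -0.10 for network chains (8 genes), and 0.01 and 0.52 as deposited. The PICT minus PCT medians of these 2 classes were then -0.44 and -0.26.

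Gaps between partner chains of a trimer changed with the probe set read. By their brightest probe sets Col4a1 and Col4a2 stood 0.69 apart in PICT minus OMCT, but the other probe set of Col4a1 gave -1.98 beside -1.85 for Col4a2. Col6a2 stood at -1.91 and Col6a3 at -1.10 by their brightest probe sets in that comparison, and at -1.05 and -1.87 by the others, so their order turned. For OMCT minus PCT Col1a1 and Col1a2 stood at -0.32 and 0.29 by their brightest probe sets and at 0.28 and 0.04 by the others. No difference between partners is therefore read from these values. The SD between probe sets of 1 collagen gene was 0.45 for PICT minus PCT, 0.35 for PICT minus OMCT and 0.54 for OMCT minus PCT (14 genes).

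For 14 collagen genes, several probe sets read the same message. In PICT minus OMCT the brightest and dimmest probe sets had the same sign for each of the 10 genes whose dimmest probe set lay above the median on all arrays. In OMCT minus PCT 9 of these 10 did so, and in PICT minus PCT 8 did. The exception in OMCT minus PCT was Col1a1, at -0.32 by its brightest probe set and 0.28 by the other. The dimmest probe set gave the larger difference in 7, 6 and 6 of 10 genes for PICT minus OMCT, OMCT minus PCT and PICT minus PCT, beside 52.4%, 49.2% and 49.6% of 1487 genes of all kinds. Col6a3 stood at 2.02 for OMCT minus PCT by its brightest probe set and 3.10 by the other, and Col5a2 at 0.82 and 1.77. Col11a1 stood at 0.46, 0.13 and 2.07 over its 3 probe sets.

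**Figure D3:**
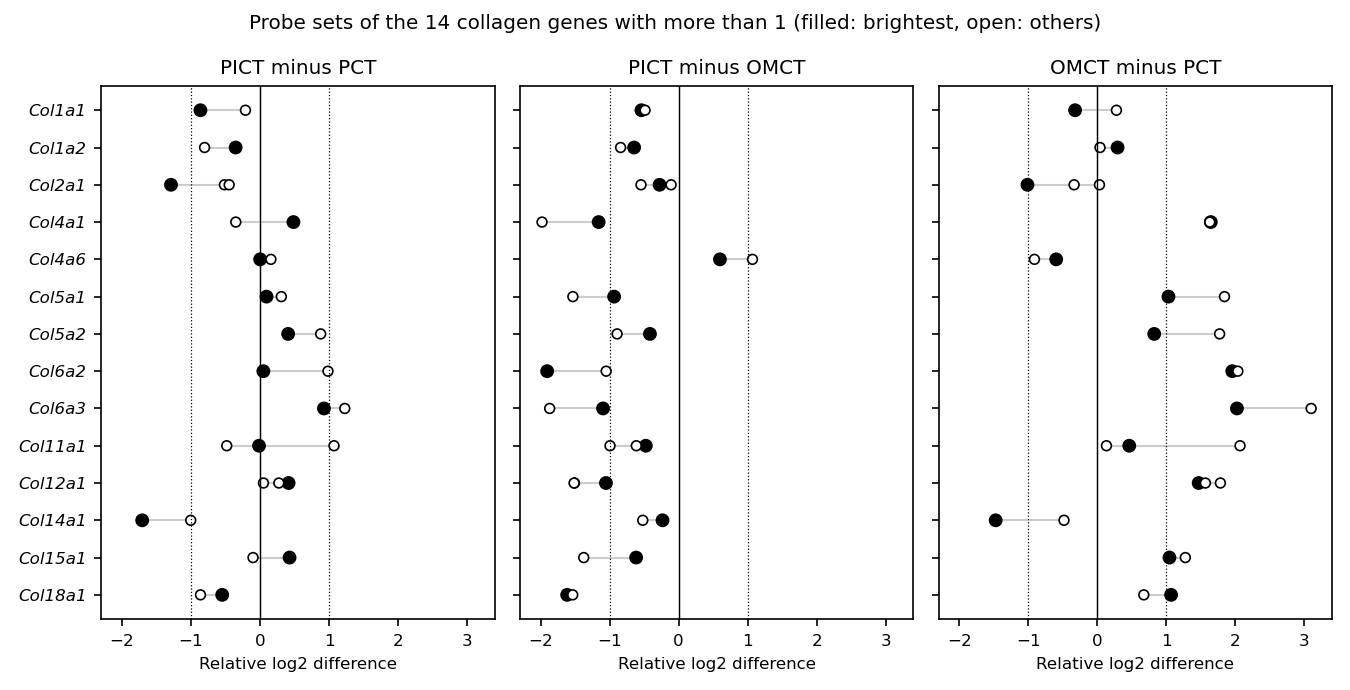
Relative log2 difference (x axes) by probe set for the 14 collagen genes with more than 1, the brightest filled and the others open; dotted lines mark 2-fold. Col6a3 spans 2.02 to 3.10 and Col11a1 0.13 to 2.07 in OMCT minus PCT, whereas those of Col4a1 lie at 1.64 and 1.63.

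Genes that make, bind and cut collagen were set beside the collagen genes. For the counts in these and the cell type lists, 3.98% of all genes were higher and 3.37% lower in PICT against PCT. These shares were 4.15% and 4.46% in PICT against OMCT, and 5.66% and 4.81% in OMCT against PCT. As deposited 14.1% of all genes were higher in PICT than in PCT (median 0.47) and 17.6% in OMCT than in PCT (median 0.54). Of 32 listed genes for collagen synthesis and processing 25 were measured, and 10 of these were higher and 0 lower in OMCT than in PCT (median 0.92, and as deposited 18 higher with a median of 1.54), 8 lower and 0 higher in PICT than in OMCT (median -0.84). In PICT against PCT 3 were higher and 0 lower (median 0.14, and as deposited 7 higher and 0 lower). Those 3 were the crosslinking oxidases Lox at 1.62 and Loxl2 at 1.11 and the telopeptide lysyl hydroxylase Plod2 at 1.34. Plod2 had 467 in PICT, 423 in OMCT and 115 in PCT. Lox had 2316 in PICT, 3295 in OMCT and 488 in PCT. In the same comparison Col1a1 and Col1a2, whose products these enzymes act on, stood at -0.86 and -0.35. The other probe sets of Col1a1 and Col1a2 gave -0.21 and -0.80. Pcolce, an enhancer of procollagen C-terminal cleavage, had 91.6 in PICT, 557 in OMCT and 96.1 in PCT, with -2.48 for PICT minus OMCT. The other genes called lower in PICT than in OMCT were the prolyl 3-hydroxylase family members P3h3 (-1.41) and P3h4 (-1.81), the collagen chaperone Fkbp10 (-1.45), the transcription factor Creb3l1 (-1.86) and the oxidases Loxl1 (-1.31), Loxl2 (-2.15) and Loxl3 (-1.10). For OMCT minus PCT, Loxl2 stood at 3.27, Fkbp10 at 2.13, Lox at 2.11, Pcolce at 1.81, P3h4 at 1.73, Loxl1 at 1.51, Plod2 at 1.18, the collagen galactosyltransferase Colgalt1 at 1.17 and the lysyl hydroxylase Plod3 at 1.10. Serpinh1 (HSP47, the chaperone specific to procollagen) was higher in OMCT than in PCT at 1.498 and stood at -0.99 for PICT minus OMCT.

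Of 12 listed collagen receptors and uptake genes 7 were measured. Itga11, the alpha 11 integrin chain of fibroblasts that binds fibrillar collagen, had 162 in PICT, 570.2 in OMCT and 43.8 in PCT, and stood at 1.10 for PICT minus PCT, -1.74 for PICT minus OMCT and 2.84 for OMCT minus PCT, past 2-fold in each. Ddr2, a receptor kinase for fibrillar collagen, stood at 0.69, -1.19 and 1.88 in the same order. Lower in PICT than in PCT were Itga1 at -1.02 and Antxr1 at -1.37 (as deposited 0 were lower). Antxr1 was also lower in PICT than in OMCT, at -2.21.

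All 7 listed collagen-degrading proteases were measured. In PICT against PCT 3 were higher and 0 lower (median 1.42, and as deposited 5 higher), namely Mmp13 at 4.89, Mmp9 at 2.80 and Ctsk at 1.42, in the comparison where the collagen genes had a median of -0.01. Of all genes 3.98% were higher there, and 14.1% as deposited. In OMCT against PCT 6 were higher (median 1.37), with Mmp13 at 6.21. Fap is also in the fibroblast list. In PICT against OMCT Mmp9 was higher at 1.59, and Mmp2 and Mmp13 were lower at -1.79 and -1.32. The 8 macrophage markers, a cell type that makes several of these proteases, summed to 2538 in PICT, 4116 in OMCT and 265 in PCT, all 8 above the negative controls on each array. In PICT against PCT 5 were higher, in OMCT against PCT 7 were higher, and in PICT against OMCT 3 were lower. The part of macrophage content in the protease differences was not tested.

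Cell type markers moved between the arrays as well. The 12 fibroblast markers had medians of 0.13 for PICT minus PCT, -1.41 for PICT minus OMCT and 1.54 for OMCT minus PCT. In these comparisons 1, 0 and 10 were higher and 2, 8 and 0 were lower. As deposited 5 were higher and 1 lower for PICT minus PCT, with a median of 0.74. Of all genes 14.1% were then higher and 0.900% lower, with a median of 0.47. The fibroblast markers summed to 0.202% of the total intensity in PICT, 0.429% in OMCT and 0.157% in PCT. The 8 measured markers of differentiated oral epithelium ran the other way, with 7 higher in PICT than in OMCT (median 4.16) and 7 lower in OMCT than in PCT (median -3.99). They summed to 0.263% in PICT, 0.0391% in OMCT and 0.293% in PCT. The 6 measured endothelial markers had medians of -1.08, -1.10 and 0.03 for PICT minus PCT, PICT minus OMCT and OMCT minus PCT, where Col4a1 and Col4a2 stood at 1.64 in the last. As deposited the endothelial PICT minus PCT median was -0.47. The 8 measured basal keratinocyte markers had medians of -0.89, 0.07 and -0.97 in the same order, the 6 smooth muscle and pericyte markers 0.26, -0.08 and -0.13, the 3 measured Schwann cell markers -2.02, -0.11 and -0.78, and the 4 skeletal muscle markers -1.07, 0.09 and -0.99. The part of fibroblast or epithelial content in the collagen differences was not tested.

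**Figure D4:**
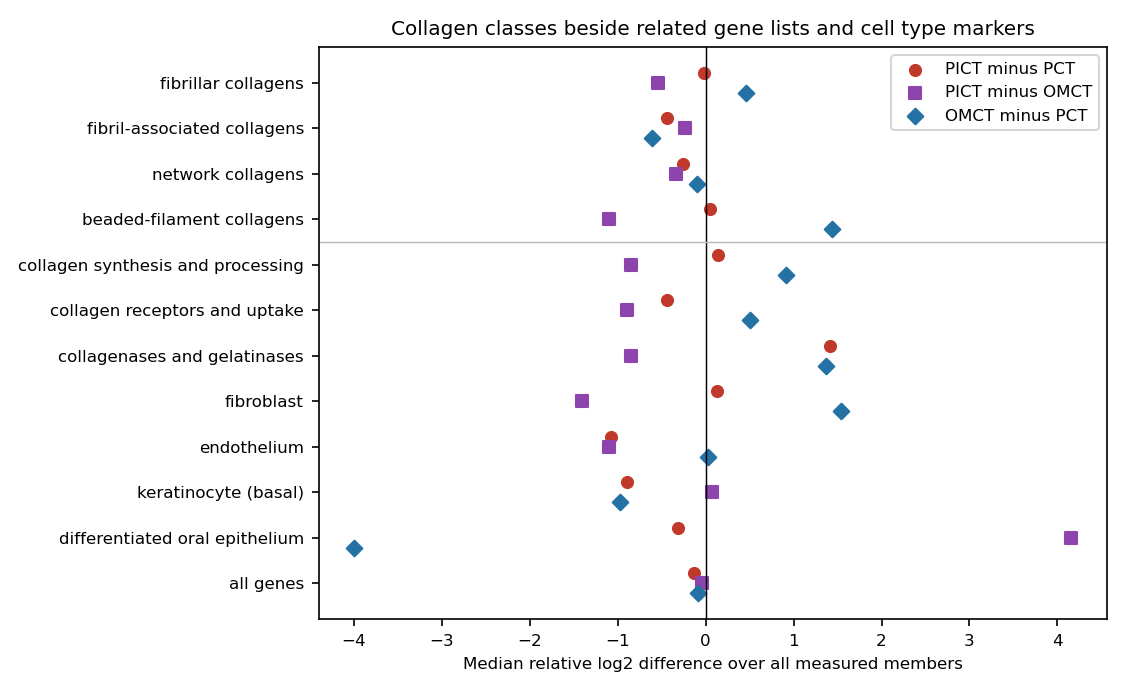
Median relative log2 difference (x axis) over all measured members for the 4 collagen classes, the collagen-related lists, cell type markers and all genes, with a circle for PICT minus PCT, a square for PICT minus OMCT and a diamond for OMCT minus PCT. Beaded-filament collagens lie at 0.05, -1.10 and 1.43 and fibroblast markers at 0.13, -1.41 and 1.54, while differentiated oral epithelium lies at 4.16 for PICT minus OMCT and -3.99 for OMCT minus PCT. Fibril-associated and network collagens lie at -0.61 and -0.10 for OMCT minus PCT, dim members included.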

How the data were processed

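The authors deposited 1 linear intensity for each of 31099 probe sets on each array, and log2 values were computed from them here. Per the labels' protocols, RNA was amplified and labelled with biotin (GeneChip 3'IVT Express Kit); probe summarisation and array scaling are not given in the sources used. Gene names came from the platform annotation of 2016, in which 20826 probe sets had 1 symbol and 436 several; all 40 collagen gene IDs matched RefSeq (GRCr8). The brightest probe set per gene was kept by mean log2 value. The pseudocount of 8.56 is the 20th percentile of all values. Python 3.11.15, numpy 2.4.6 and pandas 2.3.3 were used. The 2-fold rule was tried on simulated data with larger changes set into bright genes of 1 copied array. That trial does not cover changes near 2-fold, dim genes or the spread between animals. No p-value was computed, since each tissue has 1 array, and the number of arrays limits the precision. Collagen members, classes, gene lists and the centring were chosen with earlier results of these data known. The genes named are members called in any comparison, chains sharing a trimer, members with several probe sets, called list genes, and a few chosen after their values were seen: Col3a1, Col4a4, Col4a5, Col6a6, Col10a1, Col13a1, Col19a1, Col20a1, Col22a1, Col25a1, Acan, Hapln1, Matn1, Bglap, Ibsp, Alpl, Dmp1 and Vim. Alternatives covered scaling, pseudocount, probe set choice and filters. Protein sequences were not used here.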

Additional observations from a re-analysis of the deposited data

How the results depend on the processing

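The calls were repeated under 9 alternatives: no centring, centring on hybridisation controls, quantile normalization, linear scaling before the pseudocount, 2 other pseudocounts, the mean over probe sets, no brightness filter and, chosen after seeing the data, the dimmest probe set. Called in all of them were 10 of 14 collagen genes for PICT minus OMCT, 12 of 19 for OMCT minus PCT and 2 of 4 (Col11a2 and Col24a1) for PICT minus PCT, and no called difference changed sign. Not every alternative could remove a call. Dropping the filter cannot, and the mean over probe sets and the dimmest probe set leave genes with 1 probe set unchanged. Col7a1, Col11a2 and Col24a1 are among these. For PICT against PCT the count of higher genes, 1 as reported, was 6 as deposited, 2 with hybridisation controls, with the pseudocount at the median of all values, with the mean over probe sets and without the filter, and 3 with the dimmest probe set; lower genes, 3 as reported, were 6 without the filter. For OMCT against PCT lower genes, 2 as reported, were 1 as deposited, with the median pseudocount, with the mean and with the dimmest probe set, and 4 without the filter.

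As deposited, the medians for PICT minus PCT were 0.59 over all collagens, 0.59 for fibrillar, 0.58 for fibril-associated, 0.50 for network and 0.65 for beaded-filament chains, and for OMCT minus PCT 1.49, 1.08, 0.92, 0.93 and 2.06; these shifts follow from the array medians. For OMCT minus PCT the fibril-associated median was 1.18 with a pseudocount of 1 and the fibrillar median 1.38 with the dimmest probe set; the cause was not tested. With members bright by their mean over the arrays (also chosen after seeing the data), which leaves fewer genes, the fibril-associated and network medians were 1.64 and 1.64 for OMCT minus PCT and -1.23 and -1.16 for PICT minus OMCT. The other 164 repeated counts and medians moved by at most 1.5 times for counts, or for medians by less than the SD between probe sets of 1 gene over all genes (0.49). Over all genes, the share of calls that were higher in PICT than in PCT was 54.2%, against 94.0% as deposited and 87.45% with hybridisation controls, and for OMCT against PCT 54.1%, against 89.35% and 79.8%. No paired analysis was possible because each tissue has 1 array. Dim genes limit the lower end: 12 collagen genes lay below the median on every array.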

Other observations

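PICT read highest of the 3 arrays for 1 of 40 collagen genes on the relative scale (Col4a6, level with PCT at a difference of 0.00), beside 25.8% of all genes. OMCT read highest for 26 collagen genes (65%), beside 32.0% of all genes, and PCT for 13 (32.5%), beside 42.2%. A gene at 0 on each array would read highest in PCT by construction, since its median is lowest. Among the 28 collagen genes at or above the median on at least 1 array, 23 read highest in OMCT, 5 in PCT and 0 in PICT, beside 35.4%, 35.9% and 28.7% of the 9854 genes of that kind. Summed over the brightest probe sets, the 40 collagen genes took 0.764% of the total intensity in PICT, 1.32% in OMCT and 0.795% in PCT. Control messages read with probes at both ends had a 3' to 5' ratio of 1.58 in PICT, 1.97 in OMCT and 2.80 in PCT for Hk1; the part of RNA shortening in differences between probe sets of 1 collagen gene was not tested.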
